A study of Arabidopsis thaliana with 4 samples.

Results

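CLV3 and ULT1 are genes that limit the size of the shoot meristem, and they were chosen by name, as 2 of the 13356 genes that the array annotation ties to a probe set of their own. CLV3 (AT2G27250, on chromosome 2) was read by probe set 265624_at and ULT1 (AT4G28190, on chromosome 4) by probe set 253811_at, 1 probe set each. Transcript levels were measured in total RNA of dissected shoot apices of wild-type Arabidopsis thaliana, accession Col-0, on 1 oligonucleotide array per sample. The group called SD30 had grown for 30 days in short days, which keep this accession vegetative for many weeks. The group called SD30_LD7 had the same 30 short days and then 7 days in long days, a day length that brings on flowering. There were 2 samples in each group. All plants were of the same genotype, and the labels name no treatment other than day length. The shifted plants were also 7 days older, so day length and age cannot be told apart. A dissected apex holds the meristem together with young leaf or flower primordia, and the labels do not tell whether the 2 samples of a group were grown and dissected separately. The p-values therefore cover only the spread between these samples, and part or all of that spread may be technical.

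The shoot meristem keeps a pool of stem cells at its tip while its flanks form leaves and, after the floral transition, flowers. Stem cells secrete the peptide made from CLV3, which acts through the receptor kinase CLV1 and related receptors to hold down WUS, a homeodomain gene expressed in the cells beneath, and WUS in turn promotes CLV3. The loop holds the number of stem cells steady, and plants without CLV3 form enlarged meristems and extra floral organs. ULT1 encodes a protein with a SAND domain that acts in a trithorax type of chromatin activation, restricts the size of shoot and floral meristems, and helps to end the floral meristem through the MADS box gene AG. The comparison asks whether transcripts of these genes were at a different level in the apex once plants had been moved from short to long days.

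Neither gene passed the test for a difference between the groups. CLV3 was measured at 88.2 ± 21.6 in short days and 80.3 ± 10.8 after the shift, and ULT1 at 1003 ± 23.5 against 1110 ± 75.4 (deposited linear intensity in arbitrary units, mean ± SD, n = 2 per group). Of the 15922 probe sets tested, 15.0 percent were called different at an adjusted p below 0.05 in limma, a linear model with spreads moderated across probe sets. CLV3 and ULT1 were among the others. Signals of different probe sets on such an array depend on the probes as well as the transcript, so the level of one gene is not set against the other here.

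CLV3, the ligand, gave intensities of 72.9 and 103.5 on the SD30 arrays. It gave 72.6 and 87.9 on the SD30_LD7 arrays. The lowest array of each group had nearly the same value, the highest array was in short days, and both shifted values were below that highest value, so the groups overlapped. All 4 values lay above 23.5, the floor to which lower intensities were raised before log2 values were taken. Even so the signal was dim, and 3 of the 4 values lay at or below 102, the 40th percentile. The SD30 arrays differed from each other by a factor of 1.42 and the SD30_LD7 arrays by a factor of 1.21, while the mean log2 values of the groups differed by a factor of 0.92 (SD30_LD7 over SD30). The difference was therefore smaller than the spread within either group. The log2 difference was -0.12 ± 0.28 (SE), with a 95% interval from -0.74 to 0.50 and an adjusted p of 0.843 in limma. On a linear scale the interval ran from 0.598 to 1.41 times the short day level.

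ULT1, the SAND domain protein gene, gave intensities of 1019.7 and 986.4 on the SD30 arrays. It gave 1056.3 and 1162.9 on the SD30_LD7 arrays. Both shifted values lay above both short day values, by a small margin, so the groups did not overlap. The same held, in this direction, for 27.6 percent of all probe sets tested, and in either direction for 54.5 percent. The arrays of a group differed by a factor of 1.03 in short days and 1.10 after the shift, and the groups by a factor of 1.11. The log2 difference was 0.14 ± 0.11 (SE), with a 95% interval from -0.09 to 0.38 and an adjusted p of 0.448 in limma. In linear terms the interval ran from 0.94 to 1.30 times the short day level.

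**Figure D1:**
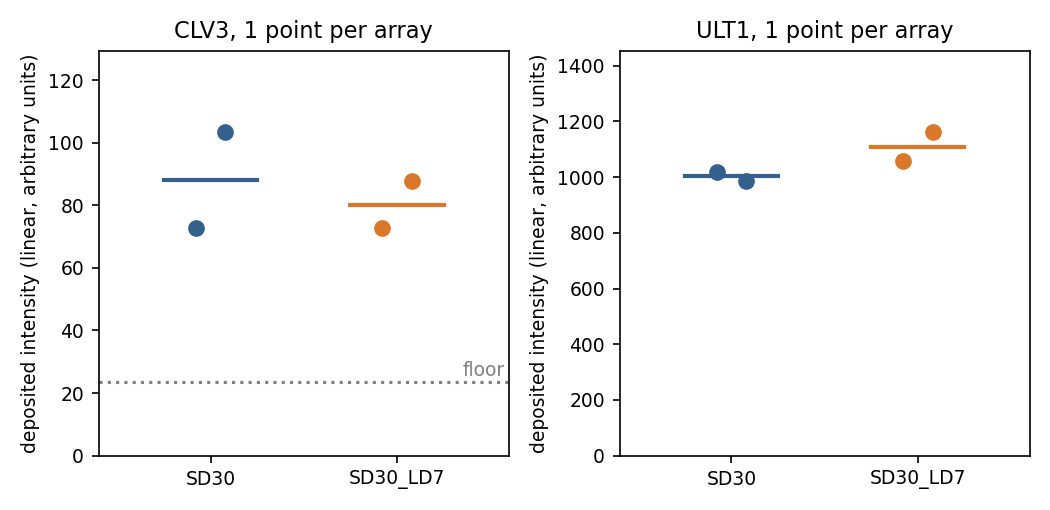
Deposited linear intensities (vertical axis, arbitrary units, starting at 0) of CLV3 and ULT1 in each group, with 1 point per array and a bar at the group mean. The CLV3 points overlap between the groups, from 72.6 to 103.5, and the ULT1 points of SD30_LD7, 1056.3 and 1162.9, lie just above those of SD30. The dotted line is the floor of 23.5.

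With 2 arrays against 2, an exact two-sided permutation test has 6 splits and cannot go below p = 0.333. This exact test gave p = 0.667 for CLV3 and p = 0.333 for ULT1. The 2 genes were measured with unlike precision. The within-group SD of the CLV3 log2 values was 0.288, larger than that of 86.9 percent of the probe sets tested. That of ULT1 was 0.073, larger than that of 21.9 percent, and the median over all probe sets tested was 0.131. At its own standard error CLV3 would have needed a difference of at least 1.89-fold in either direction to be called at the threshold that applied here, whereas ULT1 would have needed 1.27-fold. An observed CLV3 difference smaller than 1.89-fold would thus not have been called. That value is no detection limit for a true change of the transcript. The CLV3 signal was also dim, at or below 102, the 40th percentile, on 3 arrays. How much of it was background was not tested, so a larger change of the transcript may have gone uncalled too.

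The absolute log2 difference of CLV3 was larger than that of 35.0 percent of all probe sets tested, and that of ULT1 larger than that of 40.8 percent. The median absolute difference over all probe sets tested was 0.186, above both. Both genes thus lay in the broad centre of the distribution. The within-array log2 ratio of ULT1 to CLV3 differed by 0.265 between the groups (SD30_LD7 minus SD30). That value was -0.012 without SD30 replicate 2, 0.542 without SD30 replicate 1, 0.044 after quantile normalization and 0.156 with a floor raised to the 40th percentile, so no direction is given for it. The exact two-sided permutation test gave p = 0.667, but with 2 arrays against 2 it could not have passed.

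**Figure D2:**
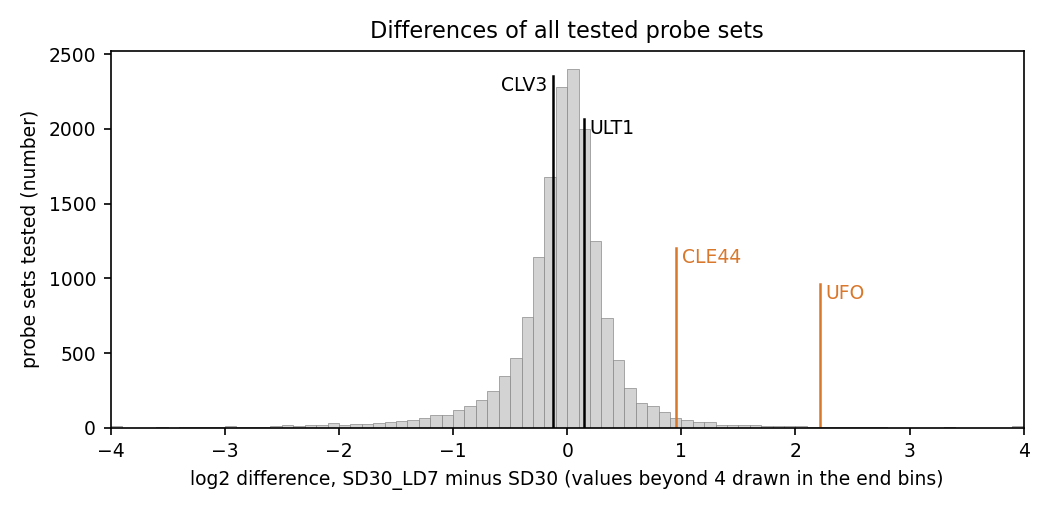
Number of tested probe sets (vertical axis) by log2 difference, SD30_LD7 minus SD30 (horizontal axis, bins of 0.1). CLV3 at -0.12 and ULT1 at 0.14 stand on either side of the centre, while CLE44 at 0.95 and UFO at 2.21, both described below, stand in the upper tail.

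The sign of the ULT1 difference held in every setting tried, and that of CLV3 turned with single arrays. Both shifted ULT1 values lay above both short day values, so leaving out 1 array could not turn its sign. The replicate block, floors, filters and trend setting could not move it from 0.144. For ULT1 the constant sign therefore adds little to the lack of overlap. Without SD30 replicate 2, the array with the highest CLV3 value, the CLV3 log2 difference was 0.13, and without SD30 replicate 1 it was -0.37. Leaving out SD30_LD7 replicate 1 or 2 gave 0.02 or -0.26. No direction is therefore given for CLV3. For ULT1, leaving out 1 array gave 0.07 (SD30_LD7 replicate 2 out) to 0.21 (SD30_LD7 replicate 1 out), and all 13 alternatives gave a positive difference that was not called, with adjusted p from 0.261 to 0.823.

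**Figure D3:**
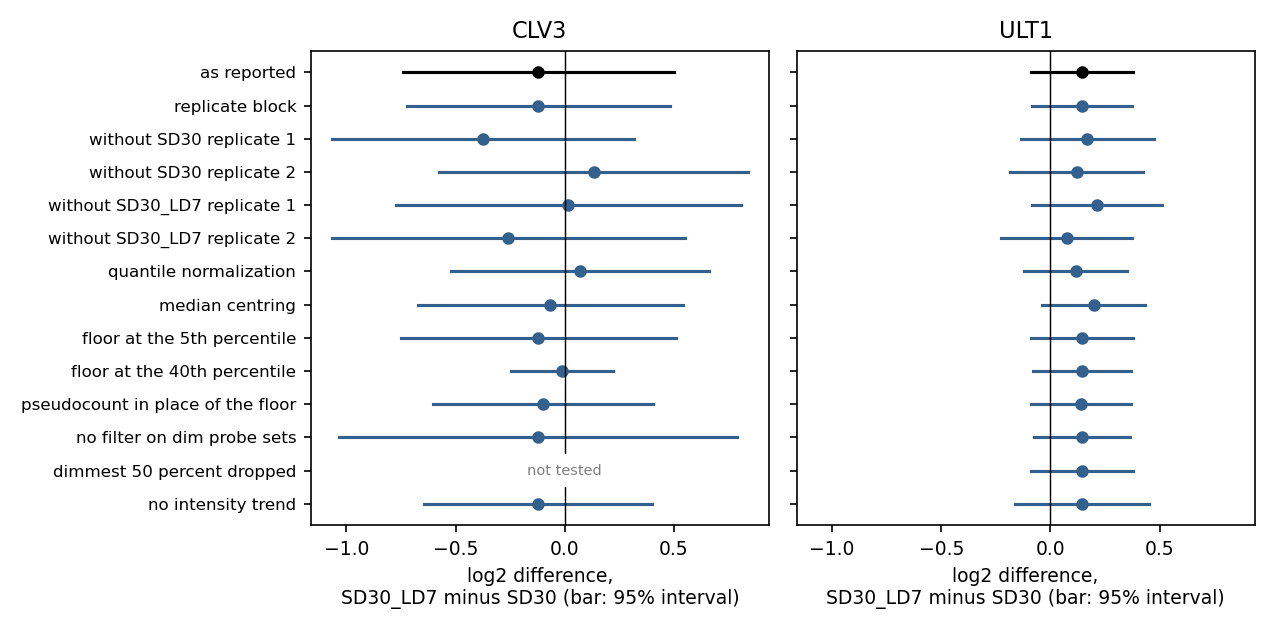
Log2 difference, SD30_LD7 minus SD30, of CLV3 and ULT1 (horizontal axis, point with its 95% interval from limma) as reported and under each alternative setting (vertical axis). Every interval includes 0, the CLV3 points fall on both sides of 0, from -0.37 to 0.13, and the ULT1 points run from 0.07 to 0.21. When the dimmest 50 percent were dropped, CLV3 was too dim to test.

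Other genes of the CLV3 and ULT1 pathways were taken from 4 lists of 99 genes in all, of which the annotation pairs 12 with a probe set, and 11 of these were bright enough to test. The remaining 87, CLV1, CLV2, WUS and STM among them, were not analysed here. Beside CLV3 and ULT1, 9 listed genes were tested: 2 rose, 0 fell and 7 did not pass. Their median log2 difference was -0.005, and that of all probe sets tested was -0.002. The share called higher over all probe sets was 6.80 percent and the share called lower 8.20 percent (1083 and 1305 probe sets, or 1329 and 1066 with arrays centred on their medians), so with so few genes the count says nothing particular about the lists. The count of 2 became 1 without SD30 replicate 1, SD30_LD7 replicate 1 or SD30_LD7 replicate 2 and when the dimmest 50 percent were dropped, and 0 without SD30 replicate 2 or when dim probe sets were kept.

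Downstream of the receptors, POL was the 1 further gene of the CLV3 signalling list of 16 that could be tested. It encodes a protein phosphatase that promotes WUS expression and is held back by CLV signalling. POL gave 978.8 and 975.9 in short days, against 997.0 and 1026.6 after the shift. Both shifted values lay slightly above both short day values, as did those of 27.6 percent of all probe sets tested by margins of any size. The log2 difference was 0.05 ± 0.10 (SE, adjusted p = 0.820 in limma, 95% interval -0.18 to 0.28).

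CLV3 belongs to the CLE family of secreted peptides, and of 31 further genes listed with it the annotation pairs 6 with a probe set. CLE44 rose from 289.3 and 232.9 in short days to 452.5 and 558.6 after the shift. Both shifted arrays were well above both short day arrays, with a log2 difference of 0.95 ± 0.16 (SE, adjusted p = 0.0017 in limma). The call was lost without SD30 replicate 2 (adjusted p = 0.056) and when dim probe sets were kept (0.18). CLE44 and CLE41 both give rise to TDIF, a peptide that keeps vascular stem cells from becoming xylem. CLE41 gave 1482.2 and 1627.9 in short days, against 1509.5 and 1586.8 after the shift, with overlapping groups and a log2 difference of -0.005 ± 0.105 (SE, adjusted p = 0.983, 95% interval -0.23 to 0.22). Whether these 2 genes differed in their change was not tested.

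AT5G59305, entered in the CLE list by its locus and left without a name by the annotation, rose from 77.7 and 83.3 to 158.0 and 146.6. The 2 groups were far apart compared with their spread, and the log2 difference was 0.92 ± 0.23 (SE, adjusted p = 0.018 in limma). With fewer arrays the call was lost, at an adjusted p of 0.095 without SD30 replicate 1, 0.073 without SD30 replicate 2, 0.12 without SD30_LD7 replicate 1 and 0.089 without SD30_LD7 replicate 2, as it was when dim probe sets were kept (0.14). The difference was 0.58 with a floor raised to the 40th percentile and was still called (0.020). When the dimmest 50 percent were dropped, it was too dim to test.

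The remaining CLE genes did not pass. CLE26 gave 60.0 and 77.4 in short days, against 39.4 and 57.4 after the shift. Its shifted values lay below the short day values by a narrow gap, as did those of 26.9 percent of all probe sets tested by gaps of any size, and its log2 difference of -0.52 ± 0.34 (SE, adjusted p = 0.375 in limma) had a wide interval, from -1.26 to 0.22. The value was -0.34 without SD30 replicate 2, -0.25 without SD30_LD7 replicate 1, -0.79 without SD30_LD7 replicate 2 and -0.30 after quantile normalization. CLE27 gave 387.7 and 342.9 in short days, against 286.8 and 437.4 after the shift, so that the shifted arrays enclosed the short day ones. CLE40, which in the root takes the part that CLV3 has in the shoot, gave 23.2 and 29.1 in short days, against 32.5 and 46.4 after the shift. It was too dim to test, with 1 array at the floor.

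Of the 29 shoot meristem regulators listed, PHV and JAG were tested. PHV encodes a class III homeodomain leucine zipper factor of upper leaf side and meristem identity. It gave 1236.2 and 1752.9 in short days, against 1496.9 and 1456.0 after the shift, with both shifted values inside the short day range and a log2 difference of 0.004 ± 0.144 (SE, adjusted p = 0.990 in limma). JAG, which encodes a zinc finger factor of organ growth at the flanks of the meristem, gave 166.6 and 197.3 in short days, against 183.1 and 128.4 after the shift. These groups overlapped too, with a log2 difference of -0.24 ± 0.22 (SE, adjusted p = 0.553).

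Among the 23 chromatin factors listed with ULT1, RBL was the 1 other gene tested. It encodes a subunit of a complex that methylates lysine on histone H3 at active genes, and it gave 498.8 and 511.7 in short days, against 430.2 and 588.6 after the shift. The shifted arrays lay on either side of the short day arrays, and the log2 difference was -0.01 ± 0.15 (SE, adjusted p = 0.988 in limma). ULT2, the close relative of ULT1, the histone methyltransferase gene ATX1 and the Polycomb gene CLF were not analysed here.

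**Figure D4:**
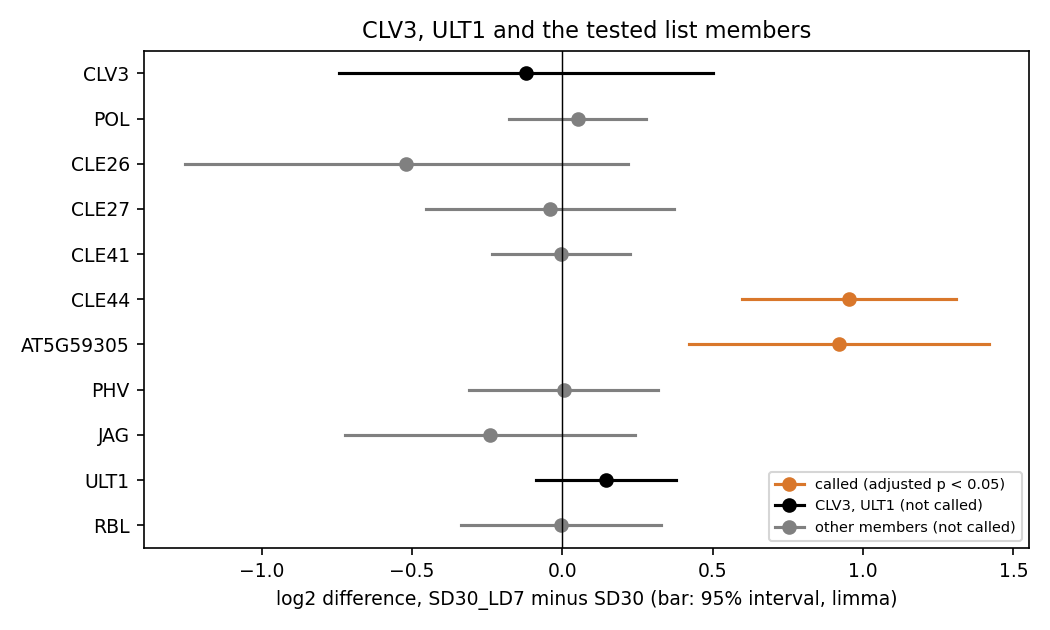
Log2 difference, SD30_LD7 minus SD30 (horizontal axis, point with its 95% interval from limma), of CLV3, ULT1 and the 9 other tested genes of the 4 lists (vertical axis). CLE44 at 0.95 and AT5G59305 at 0.92 were called higher, and the interval of each other gene includes 0.

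Of 6 shoot meristem markers the annotation names CLV3 and UFO. Their signal lay above the floor on all 4 arrays, which a floor at the 20th percentile makes a weak check of the labelled tissue, and CLV3 lay at or below 102, the 40th percentile, on 3 of the 4. UFO, an F-box gene of the floral meristem, rose from 29.3 and 57.4 to 181.2 and 199.7, a log2 difference of 2.21 ± 0.32 (SE, adjusted p = 5.2e-04 in limma, or 0.18 when dim probe sets were kept). The UFO difference was 0.90 with a floor raised to the 40th percentile and was still called (adjusted p = 0.0046). UFO was thus called in the same samples in which CLV3 and ULT1 were not. The UFO short day values, 29.3 and 57.4, also lay below 102. The within-group SD of the UFO log2 values was 0.49, larger than that of 96.8 percent of the probe sets tested. In a bulk sample, fewer cells of a type and less RNA per cell cannot be told apart. Of 4 leaf markers the annotation pairs 2 with a probe set of their own, and their differences had opposite signs. RCA, the Rubisco activase gene, gave 5410.2 and 3785.5 in short days, against 3444.4 and 3327.5 after the shift, and did not pass (log2 difference -0.42 ± 0.15 SE, adjusted p = 0.0855), though it did without SD30 replicate 2 (-0.68, adjusted p = 0.041), and it was -0.16 without SD30 replicate 1 (0.544). LHCB4.3, an antenna protein gene, rose from 126.7 and 131.5 to 435.3 and 413.1. Its log2 difference was 1.72 ± 0.16 (SE, adjusted p = 1.7e-05 in limma), a call lost when dim probe sets were kept (0.051). TRY of trichomes did not pass, and SPCH of the stomatal lineage fell by 0.57 ± 0.15 on the log2 scale (SE, adjusted p = 0.026 in limma). The annotation pairs no listed vascular marker with a probe set of its own, so none was analysed here. The SPCH call was lost whichever array was left out, at adjusted p from 0.078 (SD30 replicate 2 out) to 0.199 (SD30 replicate 1 out), with a floor raised to the 40th percentile (0.056), when dim probe sets were kept (0.18) and with no intensity trend (0.065). The part of leaf or meristem content in the values of CLV3 and ULT1 was not tested. Across the probe sets tested, the correlation between log2 values was 0.985 for the SD30 pair of arrays, 0.987 for the SD30_LD7 pair and 0.942 to 0.948 for pairs from different groups. Probe sets are not independent replicates.

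The genes whose pattern over the 4 arrays was most like that of each member were found by the root mean square difference between log2 values, each probe set centred on its own mean, over 8809 other probe sets with 1 gene. For CLV3 these were AT1G67060 at 0.0203, IAA29, a repressor gene of auxin response, at 0.0223, and AT1G72870 at 0.0227. IAA29 gave 62.0 and 84.9 in short days, against 61.8 and 73.2 after the shift, so that replicate 2 was the higher array in both groups, as for CLV3. For ULT1 they were AT5G08390 at 0.0106, AT3G60370 at 0.0120 and AT2G25760 at 0.0128. AT5G08390 gave 1232.7 and 1213.8 in short days, against 1285.4 and 1405.4 after the shift. None of these 6 genes was called, but their array order and small differences follow from how they were picked. Likeness over 4 arrays is a description of these arrays only.

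**Figure D5:**
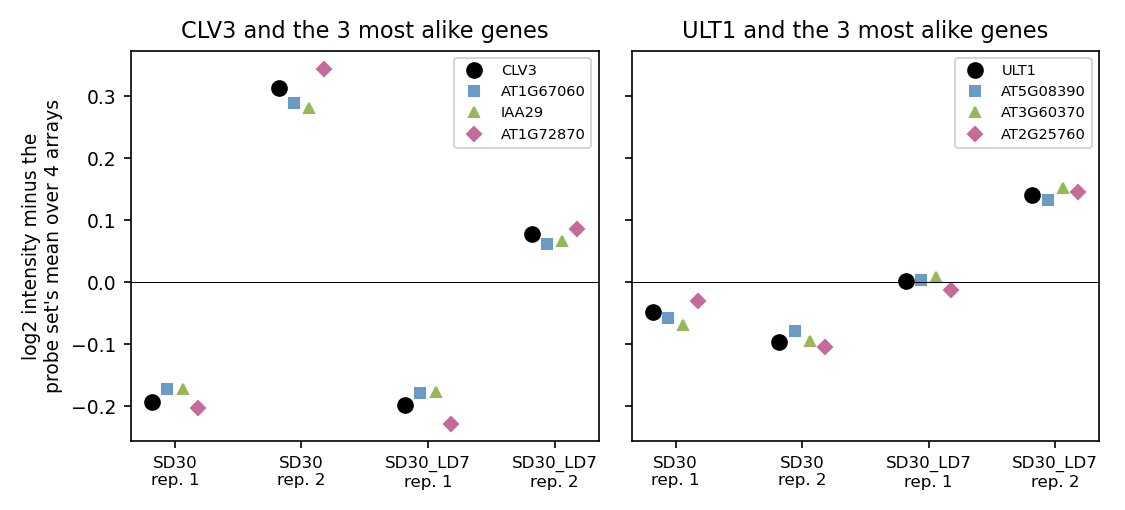
Log2 intensity minus the probe set's own mean over the 4 arrays (vertical axis) on each array (horizontal axis) for CLV3, ULT1 and the 3 genes most like each. CLV3 and its 3 genes are highest on SD30 replicate 2, and ULT1 and its 3 genes are highest on SD30_LD7 replicate 2.

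The genes next to the 2 members on their chromosomes, by the order in the TAIR10.1 gene table, were not called either. AT2G27240, on one side of CLV3, was at the floor on 3 of the 4 arrays and was not tested. AT2G27260, on the other side, gave 679.8 and 818.9 in short days, against 810.7 and 869.1 after the shift, with overlapping groups and a log2 difference of 0.17 ± 0.12 (SE, adjusted p = 0.433 in limma), which was 0.04 without SD30 replicate 1 and 0.30 without SD30 replicate 2. The nearest gene before ULT1 that the annotation pairs with a probe set of its own, AT4G28180, is separated from it by 1 gene. It gave 273.7 and 243.2 in short days, against 247.7 and 201.2 after the shift, with overlapping groups (log2 difference -0.21 ± 0.18 SE, adjusted p = 0.512). With single arrays left out this ran from -0.06 (SD30_LD7 replicate 2 out) to -0.36 (SD30_LD7 replicate 1 out), and it was -0.12 for SD30 replicate 1. AT4G28200, directly after ULT1, gave 1929.2 and 1806.1 in short days, against 1671.1 and 1724.3 after the shift. Its shifted values lay below its short day values, as did those of 26.9 percent of all probe sets tested. The log2 difference was -0.14 ± 0.10 (SE, adjusted p = 0.448 in limma), or -0.09 without SD30 replicate 1 and -0.08 with arrays centred on their medians.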

How the data were processed

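The authors deposited linear intensities of 22746 probe sets, beside 64 controls, on each of 4 arrays. Trimming 2 percent at either end left array means of 500.033 to 500.036, so the arrays had been scaled to a common level. Which software did so is not given. Precision is limited by the number of arrays. Probe sets were named through gene identifiers in the TAIR10.1 gene table.

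Intensities below 23.5, the 20th percentile, were set to that floor and log2 was taken, so differences near the floor are understated. The dimmest 30 percent of probe sets were left out, leaving 15922. The comparison used the two-sided test of limma 3.58.1 (lmFit, eBayes with an intensity trend; R 4.3.3), with Benjamini-Hochberg adjustment over all tested probe sets. The procedure was tested on simulated data. Python 3.11.15 with matplotlib 3.10.9 drew the figures.

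CLV3, ULT1 and the lists, which were matched by locus, were chosen with earlier results of these data known. Genes named were list members called or, beyond that, every member that the annotation pairs with a probe set. The 3 most alike genes per member, the chromosomal neighbours and tissue markers were named too. The rule had named an uncalled list member only by the smallest p, so CLE26, CLE27, CLE40, CLE41, PHV and RBL, and the markers UFO, TRY and SPCH, were named after their values were seen. Alternatives were the replicate block, each array left out, other normalizations, floors and filters, and no intensity trend.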

Additional observations from a re-analysis of the deposited data

How the results depend on the processing

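CLV3 kept a negative difference in 9 of 12 alternatives and was called in 0, with adjusted p from 0.505 to 0.985. It was reversed to 0.132 when SD30 replicate 2 was left out and 0.017 for SD30_LD7 replicate 1 (range -0.374 to 0.132 with 1 array left out) and 0.071 after quantile normalization. Raising the floor to the 40th percentile, an intensity of 102, left -0.012 because 3 of its 4 arrays lay at the floor. With the dimmest 50 percent dropped, CLV3 and its ratio to ULT1 had no value. The 95% interval of CLV3 reached -1.064 when SD30 replicate 1 was left out, -1.067 for SD30_LD7 replicate 2 and -1.032 with no filter, so under these a 2-fold fall lay inside it. ULT1 stayed positive and uncalled in all 13 alternatives, from 0.075 to 0.214, though leaving out 1 array could not have turned its sign. The change in the ratio of ULT1 to CLV3 ran from -0.012 to 0.542 with 1 array left out.

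Over all probe sets there were 2388 calls, 1083 upward and 1305 downward. With 3 arrays this was 1058 to 1494, of which 475 to 615 were upward and 583 to 879 downward. No filter gave 152 (44 and 108), no intensity trend 1532 (596 higher), and dropping the dimmest 50 percent left 798 lower. With arrays centred on their medians 1329 were higher and 1066 lower. Of the 11 listed genes tested, 2 were called, beside 15.0 percent of all probe sets tested. The count was 0 with no filter, where calls over all probe sets fell to 152. It was 1 with the dimmest 50 percent dropped, where AT5G59305 was not tested. These counts say nothing particular about the lists. The labels do not tell whether same-numbered arrays were grown or dissected together. Their deviations from the group means correlated at 0.047 across probe sets, which cannot settle it. The replicate block left CLV3 at -0.121 and ULT1 at 0.144, with adjusted p of 0.828 and 0.421, and gave 2741 calls.

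Of 289 values for the other 23 named genes, 250 kept their direction and call, 16 lost a call, 2 gained one (RCA, also with the replicate block at an adjusted p of 0.024) and 21 of 8 genes turned their sign. With 1 array left out, the lowest or highest values were -0.348 for AT1G67060, -0.336 for IAA29, -0.416 for AT1G72870, -0.346 for CLE27, -0.073 for CLE41, 0.256 for PHV, -0.498 for JAG and -0.232 for RBL, on the side opposite to the values that follow. Without SD30 replicate 1, CLE27 had 0.047 and PHV -0.248. Without SD30 replicate 2, AT1G67060 had 0.113, IAA29 0.117, AT1G72870 0.131, CLE41 0.062 and RBL 0.013. Without SD30_LD7 replicate 1, AT1G67060 had 0.002, IAA29 0.013, AT1G72870 0.014, CLE27 0.263, CLE41 0.031, PHV -0.016 and RBL 0.220. Without SD30_LD7 replicate 2, JAG had 0.014. With quantile normalization IAA29 had 0.093, AT1G72870 0.091 and PHV -0.020, and with median centring CLE27 had 0.013, CLE41 0.050 and RBL 0.049. None of these 8 genes was called as reported. The cause of the changes was not tested.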
